A study of Saccharomyces cerevisiae with 3 samples.

Results

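The 8 genes described here, COQ1, COQ2, COQ3, COQ4, COQ5, COQ6, COQ9 and COQ10, carry the symbols of coenzyme Q synthesis genes in the annotation of the array. They are 8 of the 5574 named genes and were chosen by name, once the Y5 minus G0 and Y10 minus G0 differences of COQ1 and COQ5 had been seen. Those values are therefore given as a description and not as a test. The study concerned budding yeast, Saccharomyces cerevisiae, shifted rapidly off a fermentable carbon source and onto one that must be respired. Each of 3 samples, titled G0, Y5 and Y10, was hybridised to 1 two-colour array with mRNP RNA (messenger ribonucleoprotein, mRNA with few or no ribosomes) in Cy3 and Poly RNA, read here as polysomes, in Cy5. The labels annotate all 3 with stress and nutrient limitation, do not explain the letters or numbers of the titles, and give no strain or genotype. There was 1 array per group and no dye swap, so no value below has a replicate error or a p-value.

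Coenzyme Q, or ubiquinone, is the lipid that carries electrons in the mitochondrial inner membrane from dehydrogenases to the cytochrome bc1 complex. Its benzoquinone ring comes from aromatic precursors and its long isoprenoid tail from the mevalonate pathway. Most of the enzymes that join and modify these parts sit in a membrane-bound complex on the matrix side. Yeast cells that cannot make coenzyme Q grow by fermentation and fail to grow on a carbon source that must be respired.

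A level below is the log2 ratio of the 2 fractions, relative to the median of all spots on the same array, so that 1 log2 unit is a 2-fold difference in the ratio. A higher level is read as a larger share of that mRNA on polysomes. The deposited values state neither the direction nor the base of the logarithm. Red over green, Cy5 over Cy3, is the likely direction by convention, and under the opposite one every sign below would turn. GCN4, whose mRNA is translated poorly unless amino acids are short, lay at −0.93 on G0, at percentile 5.89 of all genes, at 1.32 on Y5 and at −0.23 on Y10, and does not settle the direction. A level compares fractions and does not measure the amount of an mRNA. Centring hides any shift common to all mRNAs.

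Error is known only between repeat spots of a gene on 1 array. On G0 the SD for 1 spot was 0.45 (882 genes with 2 spots), on Y5 it was 0.40 (886 genes) and on Y10 0.44 (453 genes). For the difference of 1 spot between arrays it was 0.45 between G0 and Y5, 0.63 between G0 and Y10 and 0.56 between Y5 and Y10. Each of the 8 genes had 1 spot, so none could be set against a repeat of its own. The row numbers of Y10 differ from those of the other arrays and were inferred from the data. COQ9, at place 271 of its sector, fell outside the renumbered spots, and 7 of the 8 genes have a Y10 level.

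COQ1 and COQ5 stood apart from the other members on G0 and were the only members there at least 1 log2 unit above the median. Over all 5548 genes on G0, 9.26% were as much above it. COQ1 and COQ5 were both lower on Y5 and Y10 than on G0, COQ1 close to the array median and COQ5 well below it. On G0 the 8 genes ranged from −0.28 to 4.13 around a median of 0.31. On Y5 they ranged from −1.25 to 0.28 with a median of −0.45, and on Y10 the 7 measured ranged from −1.22 to 0.12 with a median of −0.30.

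**Figure D1:**
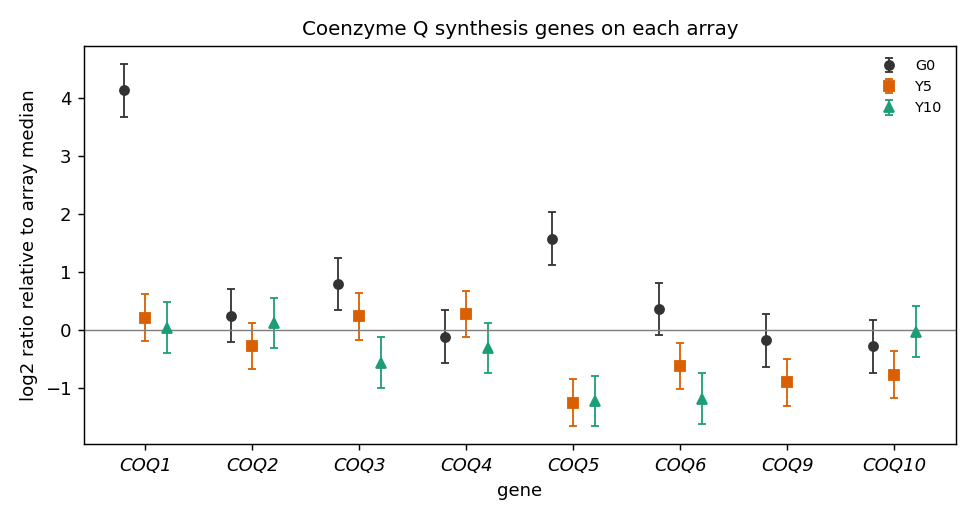
Level of each coenzyme Q gene (log2 ratio, array median at 0) on the G0, Y5 and Y10 arrays, 1 spot per point, with bars of 1 SD between repeat spots of other genes on that array. COQ1 at 4.13 and COQ5 at 1.58 lie above the rest on G0, and COQ9 has no Y10 point.

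COQ1 encodes hexaprenyl diphosphate synthase, which builds the isoprenoid tail. Its levels on G0, Y5 and Y10 were 4.13, 0.21 and 0.04, so that only G0 set it apart from the other members. On G0 it was the second highest of 5548 genes, behind PUS9, a pseudouridine synthase, at 5.30, while on Y5 and Y10 it lay at percentiles 67.2 and 54.4. The difference from G0 was −3.92 log2 units on Y5 and −4.09 on Y10. Both differences rest on the same single G0 spot: the distance of that spot from the G0 median makes up 105% of the Y5 difference and 101% of the Y10 difference. Between Y5 and Y10, which do not use the G0 spot, COQ1 differed by −0.17.

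COQ2 encodes the enzyme that attaches the tail to the ring precursor para-hydroxybenzoate. Its levels were 0.25, −0.27 and 0.12 on G0, Y5 and Y10, none far from the array median. Its differences from G0 were −0.52 on Y5 and −0.13 on Y10. MVD1, an enzyme of the mevalonate pathway and a protein-coding gene next to COQ2 on the chromosome, had levels of 0.91, 0.10 and −0.11. MRX15, on the other side of COQ2, had levels of −0.28, −0.17 and −0.50.

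COQ3, COQ5 and COQ6 encode enzymes that modify the ring, and all were at least 1 log2 unit lower on Y10 than on G0 with arrays centred on their medians. COQ5, the C-methyltransferase, had levels of 1.58 on G0, −1.25 on Y5 and −1.22 on Y10. It went from percentile 97.5 of all genes on G0 to 4.12 on Y5 and 3.64 on Y10. The difference was −2.83 on Y5 and −2.79 on Y10, and 0.03 between Y5 and Y10. The distance of the G0 spot from its median makes up 55.7% of the Y5 difference and 56.4% of the Y10 difference. The rest comes from Y5 and Y10, each of which placed COQ5 more than 1 log2 unit below its own median.

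COQ6, a flavin-dependent monooxygenase that hydroxylates the ring, had levels of 0.36, −0.62 and −1.18 on G0, Y5 and Y10. Its difference was −0.98 on Y5, just short of 1 log2 unit, and −1.55 on Y10. Here the G0 spot was near its array median and makes up 37.0% and 23.5% of the differences. COQ3, an O-methyltransferase, had levels of 0.79, 0.24 and −0.56. Its difference was −0.56 on Y5 and −1.35 on Y10. Between Y5 and Y10 it was −0.80, or 1.42 times the SD between repeat spots. The distance of its G0 spot from the median makes up 143% of the Y5 difference and 58.7% of the Y10 difference. With each sector of the arrays centred on its own median, COQ3 differed by −0.68 on Y10 and no longer passed 1 log2 unit. Its difference between Y5 and Y10 was then −0.06. Under that centring COQ6 passed 1 log2 unit on Y5, at −1.30. COQ6 then lay at 0.70, −0.59 and −0.695 on G0, Y5 and Y10. Its G0 spot was then no longer the nearest to the median, so the 37.0% and 23.5% hold only for centring on array medians. COQ3 then lay at 0.54, −0.08 and −0.14, so its 143% and 58.7% are limited in the same way.

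COQ4, COQ9 and COQ10 lay near or below the array medians throughout. COQ4, which organises the synthesis complex, had levels of −0.11, 0.28 and −0.30, and it was the only member higher on Y5 than on G0, by 0.39. That difference is 0.86 times the SD between repeat spots. COQ9, a lipid-binding protein needed for a late hydroxylation, had levels of −0.18 on G0 and −0.90 on Y5, a difference of −0.72. COQ10 encodes a protein that binds coenzyme Q and is needed for its function in respiration rather than for a step of its synthesis, so the name of the group covers it only in this wider sense. Its levels were −0.28, −0.77 and −0.03. It differed from G0 by −0.49 on Y5 and by 0.25 on Y10, and stood 0.74 higher on Y10 than on Y5.

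In the order of levels on G0, COQ1 stood above COQ5 and COQ5 above COQ3 by more than 0.64, the SD of a gap between 2 spots of different genes. From COQ3 down through COQ6, COQ2, COQ4, COQ9 and COQ10 no neighbouring pair differed by that much. On Y5 no neighbouring pair did (SD of a gap 0.57) in the order COQ4, COQ3, COQ1, COQ2, COQ6, COQ10, COQ9, COQ5. On Y10 the one gap above the SD of 0.617 was 0.625, between COQ3 and COQ6. The order from the top was COQ2, COQ1, COQ10, COQ4, COQ3, COQ6 and COQ5. The SD among the members was 1.47, 0.59 and 0.56 on G0, Y5 and Y10, against 0.70, 0.69 and 0.60 over all genes. The G0 value includes the single COQ1 spot at 4.13 and does not describe the spread of the other members.

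**Figure D2:**
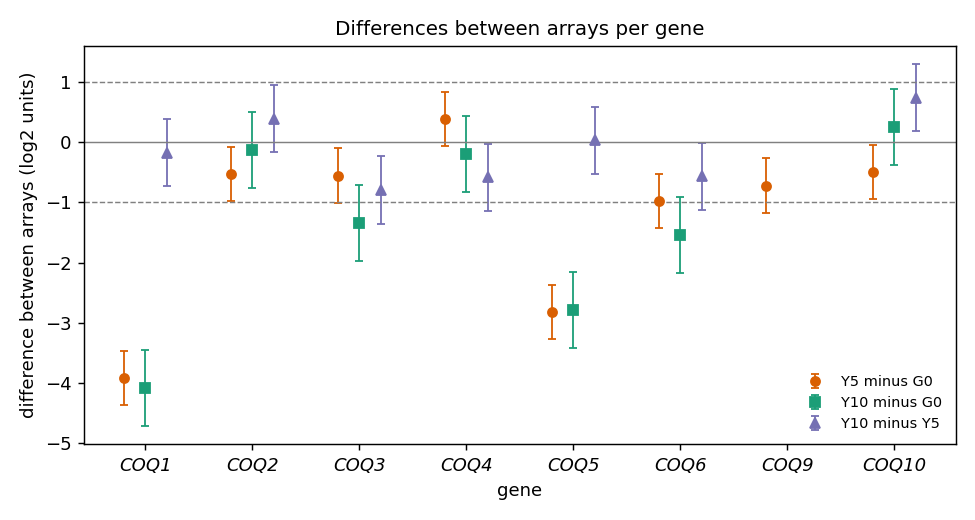
Difference between arrays (log2 units) for each coenzyme Q gene, with bars of 1 SD of the same difference between repeat spots of other genes and dashed lines at 1 log2 unit either way. COQ1 and COQ5 lie below the lower line for both differences from G0 and near 0 for Y10 minus Y5, and no gene passes a line for Y10 minus Y5.

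Read as a group, 7 of the 8 genes were below their G0 level on Y5, against 50.4% of all genes. The median difference on Y5 was −0.64 against −0.01 over all genes. On Y5, 2 of the 8, COQ1 and COQ5, were at least 1 log2 unit lower, where 10.5% of all 5546 genes were. On Y10, 6 of 7 were lower than on G0, against 51.9% of all genes. The median difference on Y10 was −1.35 against −0.03 over all genes. There 4 of the 7, COQ1, COQ3, COQ5 and COQ6, were at least 1 log2 unit lower, where 12.1% of all 4427 genes were. No member was at least 1 log2 unit higher in either difference, against 4.02% and 6.51% of all genes. The genes were chosen with these differences in view and both differences share the G0 array, so the counts describe the genes and are no evidence for them as a set.

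The group values turn on few spots. Without COQ1 the median difference on Y10 was −0.77 and 1 gene passed 1 log2 unit on Y5. Without COQ1 and COQ5 the median on Y10 was −0.19, with 2 of 5 genes at least 1 log2 unit lower, and none of the remaining 6 passed on Y5. The shares over all genes stayed at 10.5% on Y5 and 12.1% on Y10. The median on Y5 lay between −0.80 and −0.45 under the alternatives run. With each sector centred on its own median, the median on Y10 was −0.68 and 3 of 7 genes were at least 1 log2 unit lower. Under that centring 10.4% of all 4427 genes were as much lower. Between Y5 and Y10 the median difference was −0.17, with 4 of 7 genes lower, against 49.6% of all genes. Of the 7, 0 were at least 1 log2 unit lower, where 5.3% of all genes were. None was at least 1 log2 unit higher, against 3.77% of all genes. This median was −0.56 without COQ1 and COQ5, −0.06 with sector centring and 0.03 without COQ1 and COQ4, so it gives no steady direction. The members ran from −0.80 for COQ3 to 0.74 for COQ10. With sector centring COQ3 was at −0.06 and COQ10 at 0.43, and COQ4 was the lowest, at −0.88.

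**Figure D3:**
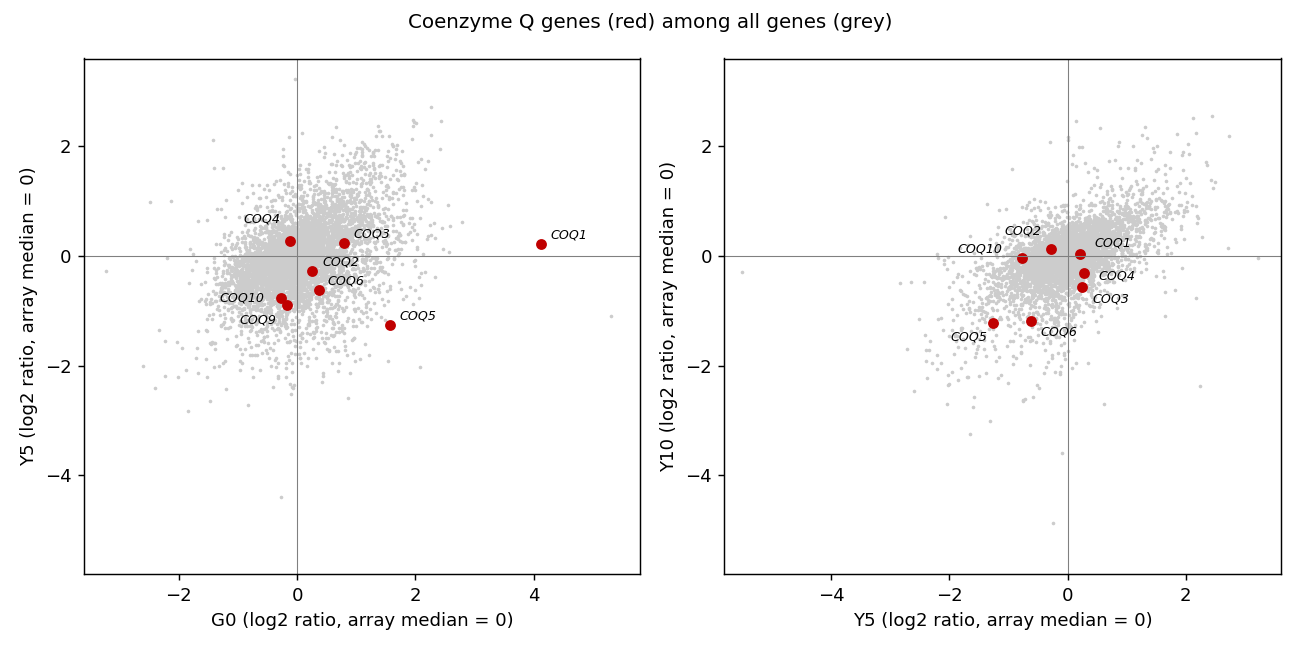
Levels (log2 ratio, array median at 0) of all genes in grey and the coenzyme Q genes in red, Y5 against G0 on the left and Y10 against Y5 on the right. COQ1 lies far right at 4.13 on G0 with 0.21 on Y5, COQ5 lies right of centre and low, and on the right COQ5 and COQ6 lie lowest among the red points.

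How far a single G0 spot as high as that of COQ1 can be trusted could not be read from repeats. No gene with 2 spots had a G0 spot at or above 3 (0 spots). Among genes with 1 spot, 3 reached that level on G0. The 2 of these at or above 4, COQ1 and PUS9, lay at 0.21 and −1.09 on Y5. More generally, 39 genes with 1 spot lay at or above 2 on G0. Of the 38 with a Y5 level, 13 were within 0.5 of the Y5 median and 11 were at or above 1, with a median of 0.46. Those Y5 levels come from another array and are not repeats of the G0 spots. Repeats exist for 14 G0 spots between 2 and 3 on genes with 2 spots. There the other spot had a median of 1.96, and 11 of the 14 other spots were at or above 1. For a spot like that of COQ5 there were more repeats. Of 62 G0 spots between 1.3 and 1.9 on genes with 2 spots, the other spot had a median of 1.28, and 38 of the 62 other spots were at or above 1.

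The spots numbered next to COQ1 were not high with it. Taking rows of 12 spots, which is how the numbering repeats, its 4 neighbours on G0 ranged from −0.48 to 1.06 with a median of −0.18. The highest was NTH2, a trehalase, at 1.06. Limiting the outer 0.5% of spots on each array set COQ1 on G0 to the upper limit itself, 2.86, which is not a new estimate of its level. With that limit the differences were −2.64 on Y5 and −2.81 on Y10. The 4 neighbours of COQ5 on G0 ranged from −0.77 to 0.48. RER2, a gene next to COQ1 on the chromosome and a prenyltransferase of dolichol synthesis, had levels of −0.04, 0.17 and −0.12. GPI18, on the other side of COQ1, had levels of −0.90, −0.57 and −0.18. Whether the G0 level of COQ1 comes from its mRNA or from that one spot was not tested.

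The renumbered Y10 array correlated unevenly with Y5 across the 32 sectors. The correlation over the renumbered spots of a sector ranged from 0.12 to 0.77 with a median of 0.60. The lowest of all 32 was the sector of COQ1 (r = 0.12 over 184 spots), and the next lowest that of COQ4 (r = 0.24 over 179 spots). In the COQ1 sector G0 and Y5 correlated with r = 0.58, and the highest correlation over 121 shifts of the Y10 numbers was 0.21, at a shift of 46 spots rather than at 0. The COQ4 sector, low as its correlation was, had its highest value with no shift. The sectors of the other measured members had correlations of 0.55 to 0.74, also highest with no shift. The Y10 level of COQ1, and less so that of COQ4, is therefore less sure than those of COQ2, COQ3, COQ5, COQ6 and COQ10. Without COQ1 and COQ4, 3 of 5 genes were at least 1 log2 unit lower on Y10 than on G0, with a median of −1.35. Over all genes 12.1% were as much lower.

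**Figure D4:**
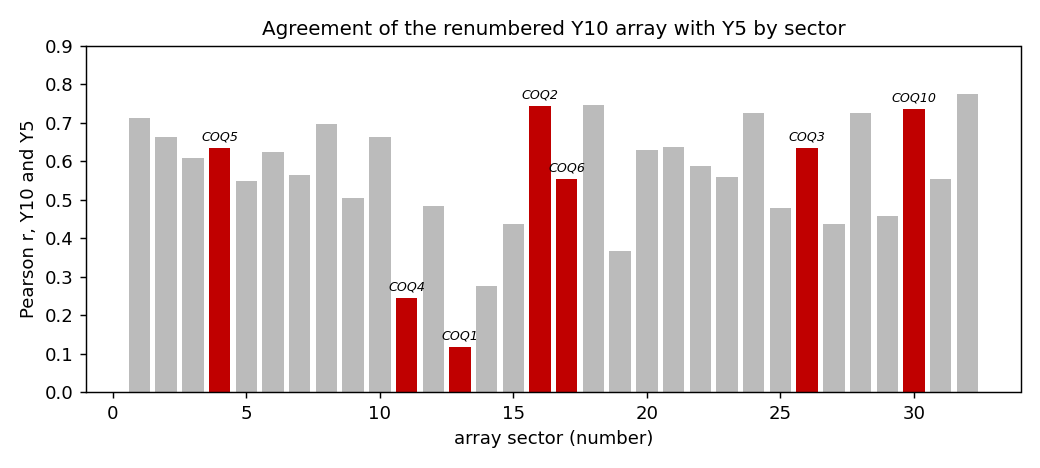
Pearson correlation between the renumbered Y10 array and Y5 over the renumbered spots of each of the 32 array sectors, with sectors that hold a measured coenzyme Q gene in red. The sectors of COQ1 (0.12) and COQ4 (0.24) are the lowest, and those of the other members lie between 0.55 and 0.74.

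Further genes of the pathway carry other symbols or were not among the 8. CAT5, also called COQ7, encodes the hydroxylase that works with COQ9, and had levels of −0.10, −0.88 and −0.21 on G0, Y5 and Y10. Its Y5 level was close to the −0.90 of COQ9. COQ8, an atypical kinase needed for the complex, had levels of 0.25, −0.21 and 0.26, close to those of COQ2. COQ11, a further protein of the complex, lay low on all 3 arrays, at −0.66, −1.19 and −1.22, and its levels on Y5 and Y10 were like those of COQ5. Unlike COQ5 it was also below the median on G0, and its differences were −0.53 and −0.56.

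Of the enzymes that serve the pathway, HFD1, an aldehyde dehydrogenase that makes the ring precursor, had levels of 0.71, −0.90 and −0.51, with differences of −1.62 on Y5 and −1.22 on Y10. ARH1, the mitochondrial ferredoxin reductase that passes electrons towards COQ6, had levels of 1.01, −0.01 and −0.22, with differences of −1.03 and −1.24. YAH1, the ferredoxin between them, differed by 0.31 and −0.54. PTC7, a phosphatase acting on the CAT5 protein, differed by −0.09 and −0.25. ABZ1 and ABZ2, of para-aminobenzoate synthesis, differed on Y5 by −0.03 and −0.15 and on Y10 by 0.46 and −0.90. Of these 9 genes, 2 were at least 1 log2 unit lower on Y5 and 2 on Y10, HFD1 and ARH1 each time, where 10.5% and 12.1% of all genes were, and none was as much higher. The median differences were −0.46 and −0.54.

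Genes of the tail precursors included the gene that supplies the substrate of COQ1. ERG20, farnesyl diphosphate synthase, lay at 1.25 on G0 and −1.15 on Y5, a difference of −2.40, and had no Y10 level. ERG13, HMG-CoA synthase, differed by −2.05 on Y5 and −0.87 on Y10, and ERG10, acetyl-CoA acetyltransferase, by −1.90 and −1.68. MVD1 differed by −0.81 and −1.02. BTS1, which makes a longer prenyl diphosphate, differed by 0.50 and 1.10, and IDI1, the isomerase of the pathway, by 0.33 and 0.99. HMG1, one of the HMG-CoA reductases, differed by 0.26 and −0.17. Of the 10 genes, 3 were at least 1 log2 unit lower on Y5 and 0 higher, and of 9 on Y10, 2 were lower and 1 higher. Over all genes, 10.5% were as much lower and 4.02% higher on Y5, and 12.1% and 6.51% on Y10. The median differences were −0.69 and −0.72.

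Genes of the aromatic precursors ranged from −1.32 to 0.71 on Y5 and from −1.88 to 0.49 on Y10 relative to G0. ARO8 and ARO9, aromatic aminotransferases, differed by −0.96 and −1.32 on Y5 and by −1.88 and −1.23 on Y10. ARO2, chorismate synthase, differed by −0.77 and −1.21. ARO4, at the entry of the pathway, was 0.71 higher on Y5 and differed by −1.64 between Y5 and Y10. ARO1 was 0.22 higher on Y5 and differed by −1.12 between Y5 and Y10. ARO7, chorismate mutase, was 0.10 higher on Y5 and 0.49 higher on Y10 than on G0. ARO3 and TYR1 differed by −0.70 and −0.02 on Y10. Of the 8 genes, 1 was at least 1 log2 unit lower on Y5 and 3 on Y10, with 0 as much higher, and the medians were −0.30 and −0.92. The share on Y5, 12.5%, was near the 10.5% of all genes, and on Y10 it was 37.5% against 12.1%.

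The enzymes that reduce or oxidise coenzyme Q had a higher median on G0 than its synthesis genes, 1.05 over 17 genes against 0.31 over the 8. The list was split. On G0, 9 of the 17 were at least 1 log2 unit above the array median, where 9.26% of all genes were. Another 6 were below that median, as were 3 of the 8 synthesis genes. On Y5, 7 of 17 were at least 1 log2 unit lower and 2 as much higher. On Y10, 3 of 13 were lower and 1 higher. Over all genes, 10.5% were lower and 4.02% higher on Y5, and 12.1% and 6.51% on Y10. SDH2 and SDH3, of succinate dehydrogenase, differed by −1.51 and −1.46 on Y5, and SDH4 by −1.69 on Y10. In the cytochrome bc1 complex, QCR2 differed by −1.56 and −1.93, RIP1, the iron-sulfur subunit, by −1.96 on Y10, and QCR7 by 0.59 between Y5 and Y10. COR1 differed by −0.77 between Y5 and Y10. QCR6 was 2.32 and 1.75 higher than on G0, where it lay at −1.68. QCR10 was 1.68 higher on Y5 than on G0 and differed by −1.30 between Y5 and Y10. For QCR10 the G0 level is from 1 spot and the Y5 and Y10 levels are each a mean of 2, so its differences from G0 compare unlike sets of spots. The NADH dehydrogenases NDI1, NDE1 and NDE2 differed by −0.48, 0.13 and 0.28 on Y5 and by 0.03, 0.70 and 0.50 on Y10. The list medians were −0.55 and −0.75. No difference between these lists and the coenzyme Q genes was tested.

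**Figure D5:**
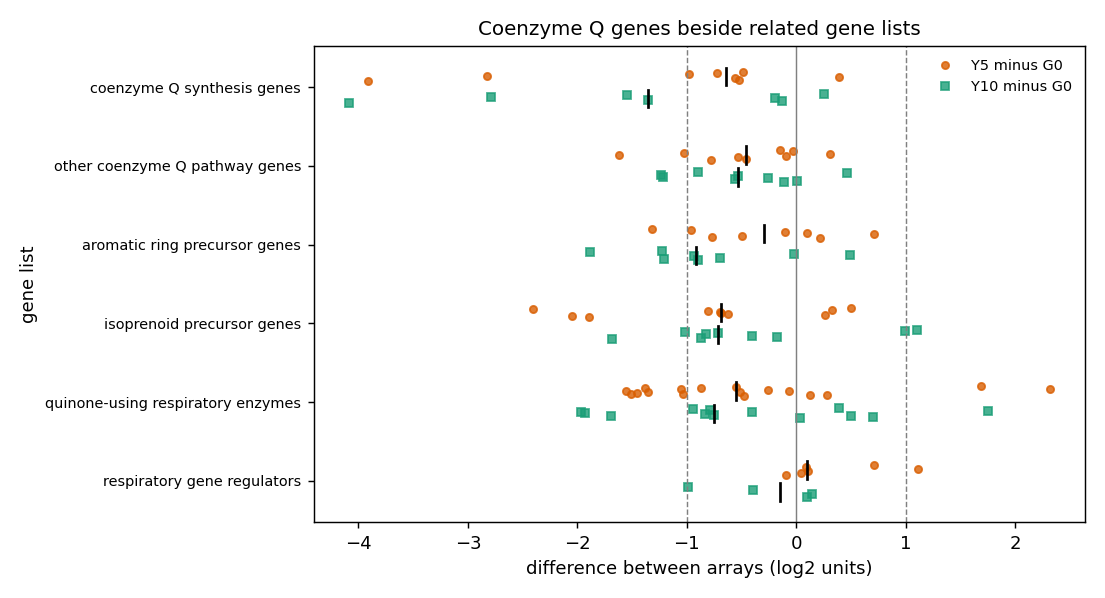
Differences from G0 (log2 units) for each gene of the coenzyme Q group and of 5 related lists, Y5 as circles and Y10 as squares, with black bars at the list medians and dashed lines at 1 log2 unit. The lowest points of all lists are those of COQ1, at −3.92 and −4.09, followed by those of COQ5.

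The genes with levels closest to those of COQ1 and COQ5 were sought by Euclidean distance over the 3 arrays among 4425 genes. For COQ5 the nearest was CPR1, a cyclophilin, at a distance of 0.22 and with levels of 1.42, −1.12 and −1.15 on G0, Y5 and Y10. RPS6A, a ribosomal protein gene, followed at 0.47, SND3 at 0.53, ATP16, an ATP synthase subunit, at 0.55 and GLO1, a glyoxalase, at 0.62. COQ1 had no close match. Its nearest were TGL2, a lipase, at 1.56, PUS9 at 1.75, CDC19, pyruvate kinase, at 1.76, MET10, of sulfite reduction, at 1.82 and IPP1, inorganic pyrophosphatase, at 1.86. Closest to the median of the 7 members on all 3 arrays (0.36, −0.27 and −0.30) were COX6, a cytochrome oxidase subunit, at 0.07, CMP2, a calcineurin subunit, at 0.08, PHO13 and YRB30 at 0.11 each and ART5 at 0.12.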

How the data were processed

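The authors deposited 1 log2 ratio per spot and array for 8832 spots, with the base of the logarithm taken here as 2. Scanner, background correction, spot filter, centring and direction are not stated in any label or header, and the design text names only a regression correlation. The medians of the deposited columns were 0.0735 (G0), 0.067 (Y5) and 0.071 (Y10). Channel intensities were not used, so signal over background is unknown, and precision is limited by the number of arrays.

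The platform annotation named 6623 spots, each with 1 symbol and all matched by gene identifier to the RefSeq table of assembly R64. No build is named for the array, so no coordinates are given. Y10 rows were renumbered from 32 sectors of 252 spots to sectors of 276, keeping the first 192 spots of each sector (6008 spots with a value). This numbering was inferred from the data. Arrays were centred on their medians, spots of a gene averaged and differences taken per gene in Python 3.11.15 with pandas 2.3.3 and numpy 2.4.6. The size rule was 1 log2 unit, with no test. The steps were tested on simulated data. The simulated Y10 column was built with the numbering inferred here, so that test could not check the numbering itself.

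The members, gene lists and alternatives were chosen with earlier results of these data known. Named were all members, all 9 other pathway genes, up to 3 genes at each end of the other lists, and the 5 nearest genes by level. Also named were GCN4, the highest spot neighbour of COQ1 on G0, and the chromosome neighbours of COQ1 and COQ2. Chromosome neighbours of the other members were not named. Alternatives were scaling to one spread, quantile normalization, centring by sector or on shared spots, limiting extreme spots, other Y10 numbering, and leaving out genes.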

Additional observations from a re-analysis of the deposited data

How the results depend on the processing

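For single genes, 232 of 243 values recomputed under the alternatives other than the deposited Y10 rows moved by no more than 1 SD between repeat spots, and 11 moved further without a called value changing sign. The median difference on Y5 was −0.45 after quantile normalization (7 genes) and −0.80 with sector centring, and the Y5 level was −0.24 after quantile normalization. Sector centring moved the median difference on Y10 to −0.68, as COQ3 went to −0.68. With COQ1 left out, the count at least 1 log2 unit lower on Y5 was 1, the median difference on Y10 −0.77 and the median level on Y5 −0.62. With COQ1 and COQ5 left out, the counts were 0 on Y5 and 2 on Y10. The median difference was then −0.19 between G0 and Y10 and −0.56 between Y5 and Y10, and the median level on G0 was 0.069. Chosen after seeing the data, leaving out COQ9 gave a median level of −0.27 on Y5, and leaving out COQ1 and COQ4 gave −0.56 on Y10. By deposited row number, where Y10 is unrelated to Y5 in the members' sectors (r from −0.13 to 0.06), the median was −0.46 for Y10 minus G0 with 2 of 7 genes at least 1 log2 unit lower, where 15.5% of all genes were under that numbering. Those 7 include COQ9 and not COQ10. The median was 0.094 for Y10 minus Y5 and 0.33 for the Y10 level, COQ6 differed by 0.0175 from G0, and COQ5 and COQ6 lay at 0.52 and 0.38. Centring on shared spots, scaling to one spread, limiting extreme spots and adding the last 60 spots of each Y10 sector moved no group count, and no group median by more than the SD between repeat spots divided by the square root of the number of genes. The cause of these shifts was not tested. No paired analysis was possible because each group had 1 array. Leaving out a replicate was not possible either.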

Other observations

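Among regulators of respiratory genes, HAP4, the activating subunit of the HAP complex, lay at −0.37 on G0 and 0.74 on Y5, a difference of 1.11, and had no Y10 level. PUF3, an RNA-binding protein of mRNAs for mitochondrial proteins, lay at 0.27 and 0.98, a difference of 0.71. HAP1, HAP2, HAP3 and HAP5 differed from G0 by −0.10, 0.05, 0.11 and 0.09 on Y5. On Y10, HAP5 lay at −1.36, a difference of −0.99 from G0 and −1.08 from Y5, and HAP3 differed from G0 by −0.39. Each of these genes had 1 spot on G0 except HAP1, which had 2. No difference was tested, with 1 array per group.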
